A study of Mus musculus with 18 samples.

Results

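The 10 genes Fos, Fosb, Junb, Egr1, Npas4, Nr4a1, Nr4a3, Arc, Homer1 and Dusp1 were taken as immediate early genes of neuronal activity. They were picked by symbol for what they are known to do, with earlier results of these data known, and they are 10 of the 30905 genes in the deposited tables. All 10 were found, and each was followed in single nuclei of the hippocampus (Hip) and prefrontal lobe cortex (PFC) of 9 Kun Ming mice, 8 weeks old at harvest, 3 in each of 3 groups. The germ-free group (GF) had been made by sterile treatment of SPF mice and was kept in flexible film isolators. For the specific pathogen free group (SPF), housing was not that of the GF and CGF mice. The colonized group (CGF) were GF mice put with SPF mice in an isolator at the age of 4 weeks and kept with them for 4 weeks. GF and CGF mice were allotted by a random number table, whereas GF and SPF mice differ in housing as well as in microbiota. Behavioural tests were part of the study, and whether the 9 sequenced mice went through them, and how long before harvest they were handled, is not given in the sources used here.

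Immediate early genes are transcribed within minutes of a strong synaptic input, without any new protein being made first. Calcium entry and the MAP kinase cascade phosphorylate CREB and SRF-bound factors that already sit on their promoters, and the RNA decays again soon after. Fos and Fosb pair with Jun proteins such as Junb to form AP-1. Egr1 is a zinc finger factor, Npas4 is a bHLH-PAS factor that answers mostly to calcium and is largely restricted to neurons, and Nr4a1 and Nr4a3 are orphan nuclear receptors. Arc, Homer1 and Dusp1 act outside transcription: Arc drives endocytosis of AMPA receptors, Homer1 makes postsynaptic scaffold proteins, and Dusp1 is a phosphatase that switches MAP kinases off. In the hippocampus these RNAs are widely used to mark recently active cells. Most of them are not particular to neurons: growth factors, stress and tissue handling raise Fos, Junb, Egr1 and Dusp1 in glia as well. UMIs were counted per gene, so the short activity-induced Homer1a and the long constitutive Homer1 forms cannot be told apart here, nor can full-length Fosb and its short form.

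The regulatory letters that most of the members share lie just upstream of their starts. RefSeq promoter windows (GRCm38.p6) were given for 8 of the 10 members. Arc and Egr1 had no entry. Letters were searched on both strands in the 250 bases before the start. TGACG, the core of the cAMP response element (CRE) that CREB binds, stood in 8 of these 8 genes and in 17.8% of all 32851 windows of the same length. The whole palindrome TGACGTCA, which holds the core, stood in Dusp1 alone, against 1.55% of all windows. The AP-1 letters TGANTCA, with C or G in the middle, were in 0 of the 8 and in 4.46% of windows, and the CArG box that SRF binds was in 0 of the 8 and in 1.47%. A TATA box, searched as TATANA with A or T at the fifth place, was found in Fos and Npas4 and in 15.6% of windows. A match is a description of letters and does not show that a factor sits there. The stretches below, 1 match a gene where some genes hold up to 4, are shown because they are what the promoters have in common. Each is written on the strand of its gene with the match in capitals, and CGTCA is the same core on the other strand. The distance is from the first base of the match to the start. The matches of Npas4 lie in an annotated exon and are not printed.
Fos (chr12:85473808-85473844, plus strand, 66 bases upstream of the start, outside any annotated gene): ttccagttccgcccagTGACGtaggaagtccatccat
Fosb (chr7:19310085-19310121, minus strand, 60 bases upstream, outside any annotated gene): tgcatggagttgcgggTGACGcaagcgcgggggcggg
Junb (chr8:84978834-84978870, minus strand, 106 bases upstream, outside any annotated gene): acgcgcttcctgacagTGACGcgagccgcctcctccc
Nr4a1 (chr15:101266790-101266826, plus strand, 40 bases upstream, in an intron of a longer Nr4a1 transcript): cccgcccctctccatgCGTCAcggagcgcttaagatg
Nr4a3 (chr4:48045084-48045120, plus strand, 205 bases upstream, outside any annotated gene): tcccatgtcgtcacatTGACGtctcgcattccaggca
Homer1 (chr13:93303701-93303737, plus strand, 40 bases upstream, in an intron of a longer Homer1 transcript): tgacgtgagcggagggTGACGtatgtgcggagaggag
Dusp1 (chr17:26508592-26508631, minus strand, 143 bases upstream, in an intron of a longer Dusp1 transcript): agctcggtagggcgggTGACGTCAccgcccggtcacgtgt
The genes also differ in length, which bears on the comparisons below. Fos, Arc, Junb, Egr1, Npas4 and Fosb span 3.38 to 7.36 kb of the genome, Nr4a1 20.5 kb, Nr4a3 41.3 kb, Dusp1 56.5 kb and Homer1 105.5 kb by the GENCODE annotation of GRCm38, where the median of all genes is 12.6 kb. These are spans of the whole gene. For Dusp1 the span is set by a single long transcript, and its principal transcript (the main protein-coding form by the annotation's tags) covers 2.93 kb. That of Nr4a1 covers 7.95 kb in its shorter form and that of Homer1 98.6 kb.

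Each mouse gave 1 Hip and 1 PFC library, 18 in all. Of 139924 barcodes 138000 passed the filter, and a score over marker genes put 80287 of them in excitatory neurons, 9741 in interneurons and 25253 in glia (astrocytes, oligodendrocytes, their precursors and microglia). The score left 18182 nuclei (13.2%) in no class. Slc17a7, the vesicular glutamate transporter, stood at 3.36 UMIs per 10000 in excitatory nuclei and Gad1, the GABA-making enzyme, at 3.73 in interneurons. Slc17a7 was also at 1.79 in astrocytes, 2.14 in oligodendrocytes and 2.46 in microglia, so neuronal RNA was present in glial barcodes.

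The GF libraries stood apart from the other 6 in each region in ways that move with the group. Malat1 took 6.66 to 7.32% of UMIs in GF Hip libraries and 6.32 to 6.90% in GF PFC libraries, against 2.91 to 3.28% and 3.00 to 3.87% in SPF and CGF libraries together. In PFC the GF libraries held 59126586 to 71463928 UMIs, the SPF libraries 20336250 to 26949210 and the CGF libraries 22213863 to 26151503. The Hip totals overlapped: GF libraries ran from 49067853 to 56240654 UMIs, SPF libraries from 55558458 to 63217083 and CGF libraries from 54526815 to 62313617. The ribosomal-RNA-linked transcript Gm42418 took 0.0118 to 0.0189% of UMIs in GF PFC libraries, against 1.20 to 1.79% in SPF and 1.74 to 2.41% in CGF. Mitochondrial transcripts took 0.645 to 1.10% of UMIs in GF Hip libraries, above SPF (0.128 to 0.471%) and CGF (0.0770 to 0.218%), and 0.359 to 0.594% in GF PFC libraries, below SPF (1.66 to 3.22%) and CGF (1.28 to 2.24%). The median UMIs of an excitatory nucleus ran from 6158 to 6961 in GF Hip libraries, against 8683 to 9773 (SPF) and 7683.5 to 10341 (CGF). In PFC it ran from 9284 to 10036.5 in GF libraries, against 3958.5 to 4179.5 (SPF) and 3035 to 4414.5 (CGF). GF nuclei were thus the shallower ones in Hip and the deeper ones in PFC. The part of these properties in the members' differences was not tested. Library make and microbiota cannot be told apart, and nearly every comparison of GF with another group found a large share of all genes past the threshold. The share of all genes called is therefore printed beside most counts of members. It is not given for fits with the mouse as a block.

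Levels are normalized CPM, the UMIs of a gene scaled to 1 total for every library and class and adjusted by edgeR's TMM factors, always in the order of mice GF5, GF6, GF7; SPF30, SPF31, SPF32; CGF17, CGF18, CGF19. A sum over a class cannot tell fewer active nuclei from less RNA in each. Tests are edgeR's quasi-likelihood test with Benjamini-Hochberg adjustment over all genes tested. For groups within a region the mouse is the unit, so p-values measure the spread between 3 mice a group. The fits over both regions take the 18 libraries as separate, although each mouse gave 1 in each region, except where the mouse is a block. The tests between classes measure differences within the 9 libraries of a region.

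In Hip excitatory neurons 7 of the 10 members were higher in GF than in SPF mice. These were the AP-1 genes Fos, Fosb and Junb, then Egr1, Npas4, Arc and Dusp1, and in each of them all 3 GF mice lay above all 3 SPF and all 3 CGF mice. Over all 18694 genes tested 45.9% were past the threshold, 25% of all genes being higher in GF, and 56.4% of genes had GF and SPF libraries that did not overlap. The median log2 difference of the 10 members was 1.18, against 0.04 over all genes.

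Fos stood at 17.005, 11.3 and 14.1 normalized CPM in the GF mice, at 4.95, 2.71 and 2.54 in the SPF mice and at 4.14, 3.84 and 2.42 in the CGF mice. The lowest GF mouse thus had over 2 times the level of the highest mouse of the other groups. The GF mean was 4.16-fold the SPF mean in the fit (log2 2.06, SE 0.29, 95% interval 1.49 to 2.62, edgeR adjusted p = 0.000452). Junb followed with 75.2, 51.5 and 51.0 in GF, 20.3, 14.8 and 12.7 in SPF and 18.4, 19.2 and 13.3 in CGF. It rose 3.72-fold in GF over SPF (log2 1.90, SE 0.22, edgeR adjusted p = 0.000194), again with a wide gap between the groups. Fosb was low throughout, at 6.44, 3.84 and 4.60 in GF, 2.79, 1.70 and 1.36 in SPF, and 2.30, 3.70 and 1.93 in CGF. Its GF mice lay above the SPF mice by less, and GF6 came close to CGF18 (GF over SPF log2 1.35, SE 0.33, edgeR adjusted p = 0.00773). When all 18 libraries were scaled together GF6 lay just under CGF18 for Fosb (3.86 against 3.92) and for Egr1 (28.3 against 28.8), so for these genes the lack of overlap with CGF depends on the scaling.

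Egr1 was at 45.0, 28.1 and 45.3 in GF, 23.6, 17.6 and 20.3 in SPF and 21.1, 27.2 and 16.8 in CGF mice (log2 0.95, SE 0.22, edgeR adjusted p = 0.00568). Npas4 was at 19.9, 12.4 and 15.1 in GF, 9.77, 6.27 and 4.77 in SPF and 10.2, 10.0 and 4.95 in CGF (log2 1.19, SE 0.32, edgeR adjusted p = 0.0130). In both genes GF6 was the lowest GF mouse and lay just above the highest mouse of another group. The nuclear receptors went another way. Nr4a1 was at 62.2, 45.3 and 58.2 in GF and at 47.7, 43.2 and 40.0 in SPF, which overlap, with CGF at 36.9, 41.7 and 27.9 (log2 0.34, SE 0.16, edgeR adjusted p = 0.0990). Nr4a3 was level over the groups, at 62.2, 45.2 and 52.7 in GF, 64.2, 58.1 and 55.2 in SPF and 54.2, 43.2 and 60.5 in CGF (log2 -0.15, 95% interval -0.42 to 0.12, edgeR adjusted p = 0.411).

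Among the effectors Arc moved most: 55.6, 32.6 and 37.4 in GF, 15.5, 14.1 and 9.99 in SPF, and 14.6, 17.9 and 8.97 in CGF. That is 3.18-fold between GF and SPF (log2 1.67, SE 0.28, edgeR adjusted p = 0.00109), with no overlap. The MAP kinase phosphatase Dusp1 was low but as clearly split, at 9.86, 7.68 and 10.7 in GF, 4.87, 3.46 and 4.16 in SPF and 3.30, 4.09 and 2.75 in CGF (log2 1.18, SE 0.19, edgeR adjusted p = 0.000957). Homer1 was at 485, 283 and 395 in GF, 324, 282 and 262 in SPF and 271, 290 and 289 in CGF. GF5 and GF7 lay above all other mice and GF6 among them (log2 0.42, SE 0.16, edgeR adjusted p = 0.0590). Without GF6 the Homer1 difference was past the threshold (log2 0.60, edgeR adjusted p = 0.00406), and Nr4a1 was past it without GF6 (0.47, adjusted p = 0.0394) or CGF19 (0.34, adjusted p = 0.0436).

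**Figure D1:**
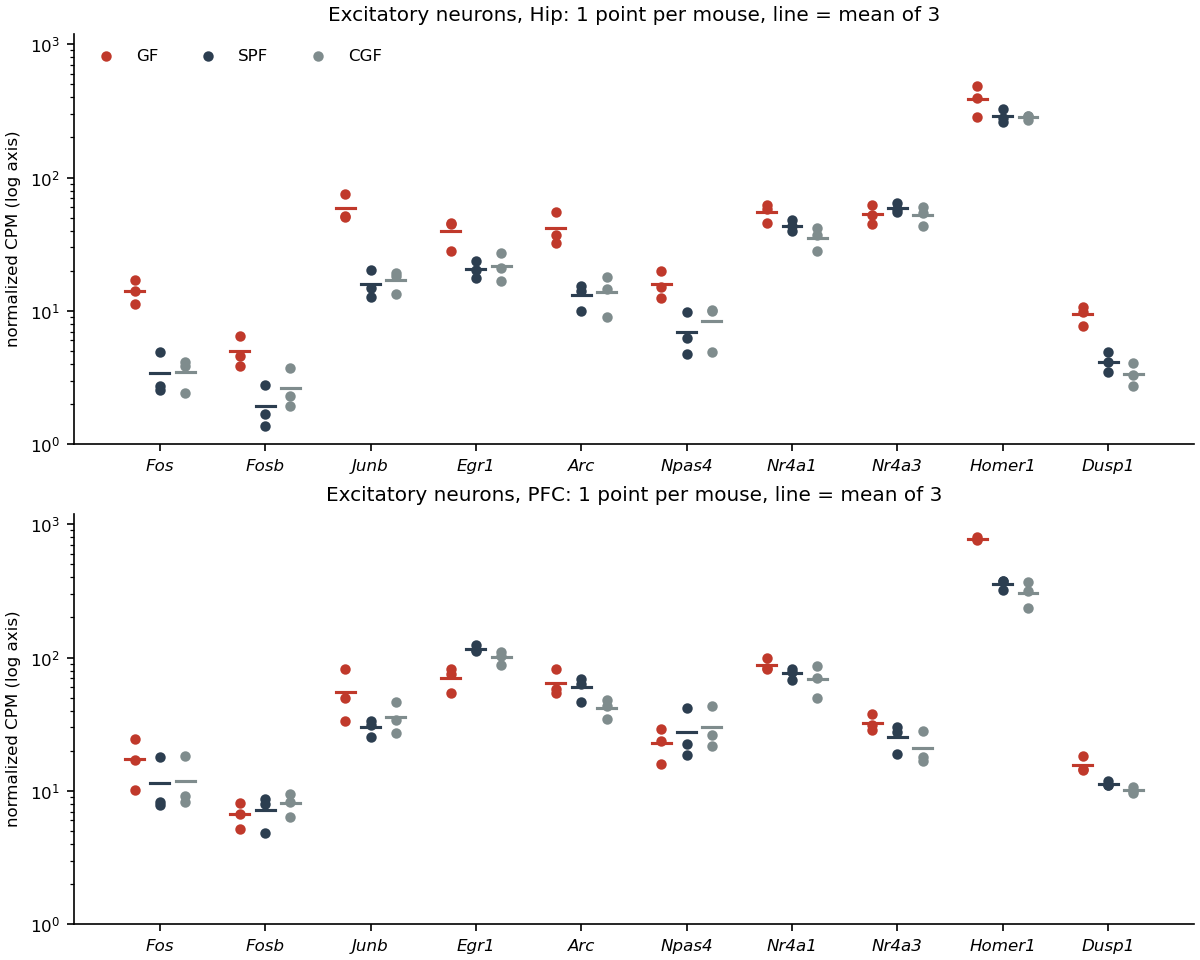
Normalized CPM (log axis) of the 10 members in excitatory neurons of Hip (top) and PFC (bottom), 1 point for each of 9 mice, coloured by group, with a line at the mean of 3. In Hip the GF points of Fos (11.3 to 17.005) clear those of SPF (2.54 to 4.95), while in PFC the Fos groups overlap and Homer1 is the gene with the widest gap.

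Against CGF mice the picture in Hip excitatory neurons was much the same, 9 of 10 members being higher in GF where 46.1% of all genes were called. The log2 difference was 2.02 for Fos, 1.80 for Junb, 1.596 for Arc, 1.47 for Dusp1, 0.91 for Npas4, 0.90 for Fosb, 0.86 for Egr1, 0.64 for Nr4a1 and 0.45 for Homer1, and 0.02 for Nr4a3. Of these, Fosb lost the call without CGF17, CGF19, GF5, GF7 or SPF31, Npas4 without CGF18, CGF19, GF5, GF7 or SPF31, and Homer1 without any mouse but GF6 and SPF30 (adjusted p from 0.0518 to 0.165). With the trend of fold change with gene length and GC content removed, 4 of the 9 were past the threshold where 32.9% of all genes were, Fos (1.36), Junb (1.03), Dusp1 (1.55) and Homer1 (0.79), while Arc stood at 0.85 (edgeR adjusted p = 0.0846). No member passed between CGF and SPF mice in this class: 0 of 10 were past the threshold by edgeR and by DESeq2, 0 had an unadjusted p under 0.05, and 0.61% of all genes were called. The largest CGF against SPF values were 0.45 for Fosb (95% interval -0.20 to 1.10), -0.30 for Dusp1 (-0.68 to 0.08) and -0.30 for Nr4a1 (-0.60 to 0.01). The 3 comparisons share libraries, so the GF values enter both of the first ones.

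A trend over all genes bears on these values. In GF libraries the fold change against SPF varied with gene length and GC content, and the 6 short members sit at the end of the trend that is higher in GF. With the trend removed, 5 members were higher in GF in Hip excitatory neurons: Fos (log2 1.44), Dusp1 (1.30), Junb (1.26), Arc (1.03) and Homer1 (0.67). In this fit 32.2% of all genes were called. Fosb at 0.90, Npas4 at 0.68 and Egr1 at 0.42 were no longer past the threshold (adjusted p = 0.0897, 0.195 and 0.234). The removal used the span of the whole gene, by which Dusp1 counts as long. With the shortest principal transcript of each gene in its place, a choice made after the data were seen, 4 members were higher where 32.7% of genes were called: Fos (1.47), Junb (1.16), Arc (1.06) and Homer1 (0.69). Dusp1 then stood at 0.59 and did not pass (edgeR adjusted p = 0.0669), although it did against CGF (0.86, adjusted p = 0.0152). Whether the length trend comes from the libraries or the tissue was not tested.

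In Hip interneurons 8 of 10 members were higher in GF than in SPF, where 37.3% of all genes were called and 20.2% were higher. Fos was at 16.9, 14.05 and 18.2 in GF, 4.20, 5.12 and 2.68 in SPF and 4.13, 3.17 and 6.46 in CGF (log2 2.02, SE 0.28, edgeR adjusted p = 0.000324). Junb was at 38.1, 38.4 and 38.5 in GF and 18.5, 11.1 and 12.8 in SPF (1.42, SE 0.18, adjusted p = 0.000215). The GF mice were nearly alike in these genes and clear of the rest. Nr4a1, which had overlapped in excitatory neurons, was apart here, at 60.6, 47.2 and 62.4 in GF, 28.9, 31.9 and 35.7 in SPF and 21.5, 27.1 and 27.1 in CGF (0.82, SE 0.14, edgeR adjusted p = 0.00106). The others past the threshold were Fosb (2.81), Npas4 (1.55), Dusp1 (1.23), Arc (1.14) and Egr1 (0.55). Fosb rested on 13, 15 and 10 UMIs in the GF libraries and 2, 1 and 2 in the SPF libraries. Nr4a3 at 0.63 and Homer1 at -0.11 did not pass. Arc was lost without GF6 (adjusted p = 0.0620) or SPF30 (0.0606), and Egr1 without GF7 (0.0818), SPF31 (0.0650) or SPF32 (0.0557). Nr4a3 passed without CGF19 (0.63, adjusted p = 0.0297). With the length and GC trend removed 6 members passed where 17.2% of genes did, Egr1 standing at -0.09 and Arc at 0.39. By the principal transcripts 3 passed, Fos, Fosb and Npas4, where 17.5% of genes did, and Dusp1 was at 0.48 (edgeR adjusted p = 0.264). Against CGF 9 of 10 were higher in GF, all but Homer1, where 39.4% of genes were called; Nr4a3 (0.97) was lost without CGF17, CGF18, GF5 or GF7 (adjusted p from 0.0598 to 0.133). With the trend removed 5 of them passed against CGF, Fos, Npas4, Nr4a1, Nr4a3 and Dusp1, where 17.6% of genes did. Between CGF and SPF 0 of 10 passed in edgeR and in DESeq2, 2 had an unadjusted p under 0.05, and 0.153% of genes were called.

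In Hip glia 7 members were higher and Homer1 lower in GF than in SPF, where 39.8% of all genes were called and 21.6% were higher. Fos was at 22.2, 22.2 and 29.9 in GF, 4.12, 5.02 and 5.32 in SPF and 5.11, 4.42 and 4.81 in CGF (log2 2.35, SE 0.20, edgeR adjusted p = 1.77e-05). Junb was at 93.3, 83.8 and 98.4 in GF and 25.5, 20.7 and 24.1 in SPF (1.97, SE 0.17, adjusted p = 2.11e-05). Neither gene overlapped between GF and the other groups. Npas4 (1.25), Fosb (1.19), Dusp1 (1.04), Egr1 (1.01) and Arc (0.97) also rose, and Nr4a1 at 0.52 and Nr4a3 at 0.42 did not pass. Homer1 was at 102, 85.0 and 123 in GF, 152, 120 and 163 in SPF and 130, 144 and 161 in CGF, with GF7 inside the SPF range (-0.49, SE 0.15, edgeR adjusted p = 0.0174). Homer1 lost the call without GF5 (adjusted p = 0.0520), GF6 (0.0772), SPF30 (0.0556) or SPF32 (0.0595), and Fosb without GF7 (0.123), SPF31 (0.0703) or SPF32 (0.0718). Nr4a1 passed without GF5, GF6 or SPF32 (adjusted p from 0.0303 to 0.0379) and Nr4a3 without GF6 (0.0283). With the trend removed 3 of these members stayed past the threshold, Fos, Junb and Dusp1, where 26.4% of genes were past it. By the principal transcripts these were Fos (1.74) and Junb (1.27), where 26.5% of genes were called, and Dusp1 was at 0.38 (edgeR adjusted p = 0.289). Against CGF 8 were higher and Homer1 lower, where 41.8% of genes were called. There Fosb was lost without GF7 (0.0592) and Homer1 without CGF19 or GF6 (0.0551 and 0.0733), and Nr4a3 passed without CGF19 or GF6 (0.0425 and 0.0115). Against CGF 4 members passed with the trend removed, Fos, Junb, Nr4a1 and Dusp1, where 28.8% of genes did, and Homer1 stood at -0.14. Between CGF and SPF 0 of 10 passed in edgeR and in DESeq2, 0 had an unadjusted p under 0.05 and 0.13% of genes were called.

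The glial types were also fitted singly, where fewer members could be tested. In Hip astrocytes 7 of 8 tested members were higher in GF and Homer1 lower (32.8% of genes called), with Fos at log2 2.78 (SE 0.30, edgeR adjusted p = 1.31e-05) and Junb at 2.08. Hip oligodendrocytes had 5 of 9 higher (33.4% called), led by Fos at 2.26 and Junb at 1.97. In their precursors 3 of 6 were higher and Homer1 lower (19.2% called), and in microglia, the immune cells of the brain, Junb (1.81) and Egr1 (0.98) were higher and Homer1 lower of 3 tested (27.8% called). Microglial Junb was at 170, 166 and 192 in GF and at 46.0, 45.7 and 59.6 in SPF libraries. In PFC the counts were 7 of 8 in astrocytes (46.1% called), 2 of 4 in oligodendrocytes (39.4%), 1 of 3 in precursors (35.8%) and 2 of 3 in microglia (38.4%), all higher in GF. Junb and Egr1 were past the threshold in each of these PFC types where both were tested. Some SPF and CGF libraries held 0 UMIs of a member in these PFC sums. With a mouse left out, calls were lost for Homer1 in Hip astrocytes and precursors (without GF5, GF6, SPF30 or SPF32), for Nr4a1 and Nr4a3 in Hip astrocytes (GF7), for Arc (GF5, GF7, SPF30 or SPF31) and Dusp1 (GF6, GF7, SPF30 or SPF31) in Hip oligodendrocytes, for Arc (GF5 or SPF30) and Egr1 (GF5, GF7 or SPF31) in Hip precursors and for Egr1 in Hip microglia (GF7 or SPF31). In PFC they were lost for Homer1 (GF7 or SPF30) and Nr4a1 (GF5, GF7 or any SPF mouse) in astrocytes and for Junb in microglia (SPF32). Adjusted p in these fits ran from 0.0569 to 0.1798. Homer1 passed in Hip oligodendrocytes without GF7 (0.0396) and in PFC microglia without GF6 (0.0110).

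Neuronal RNA in glial barcodes was set against the members by counting each per 100 UMIs of Slc17a7 in the same library and class. In GF Hip libraries Fos gave 14.8, 15.8 and 22.4 in glia and 6.80, 4.30 and 5.24 in excitatory neurons. In SPF Hip libraries Fos gave 2.00, 2.70 and 2.15 in glia and 2.51, 1.41 and 1.17 in excitatory neurons. The glial Fos ratio was thus above the neuronal one in 3 of 3 GF mice, and in SPF mice above it in 2 and below it in SPF30. Junb gave 59.5 to 73.8 in GF glia and 18.9 to 30.1 in GF excitatory neurons, against 9.75 to 12.4 and 5.83 to 10.3 in SPF. Egr1 gave 40.5 to 74.2 and 10.7 to 18 in GF, against 16.9 to 20.5 and 9.13 to 12.0 in SPF. In PFC the glial Fos ratio was 19.8, 8.32 and 21.7 in GF and 1.71, 1.43 and 2.87 in SPF, where excitatory neurons had 9.31, 3.34 and 6.21 and 3.71, 1.49 and 1.87. The glial ratio there was above the neuronal one in 3 of 3 GF mice and below it in 2 of 3 SPF mice. The glial Egr1 ratio in PFC was 65.3 to 112 in GF, where excitatory neurons had 17.8 to 29.6. Neurod6, a transcription factor gene of excitatory neurons, was used as a second neuronal transcript. On the scale given above for Slc17a7 and Gad1 by class, Neurod6 stood at 0.681 in excitatory nuclei and 0.760 in microglia. It was at 0.646 in oligodendrocytes, 0.466 in astrocytes and 0.439 in precursors. Its level thus did not set excitatory neurons apart from all glia here, which limits it as a neuronal control. Per 100 UMIs of Slc17a7, Neurod6 gave 50.5 to 57.4 in GF Hip glia and 37.2 to 40.5 in excitatory neurons. In SPF these were 26.9 to 34.7 and 27.5 to 32.1. The glial Neurod6 ratio was thus above that of excitatory neurons in GF Hip, while the ranges overlapped in SPF. In PFC Neurod6 gave 15.1 to 29.7 in GF and 2.86 to 9.43 in SPF glia, and 18.5 to 23.7 and 7.11 to 10.7 in excitatory neurons, so this ratio too was higher in GF in both classes. A ratio also moves with Slc17a7 itself, so a higher one does not by itself show more of the other gene. Egr1 in PFC excitatory neurons, lower in GF by normalized CPM, gave overlapping ratios of 17.8 to 29.6 in GF and 21.5 to 25.5 in SPF. Slc17a7 itself stood at 310 to 381 UMIs per 1000 glial nuclei in GF Hip, below the 502 to 822 of SPF. In PFC the order was the other way, with 435 to 456 in GF and 202 to 235 in SPF. These counts per nucleus are not scaled for depth, which had the same order. The median UMIs of a glial nucleus were 2108 in GF and 2693 in SPF in Hip, and 2253 and 940.5 in PFC. The part of carried-over neuronal RNA in the glial differences was not tested.

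**Figure D2:**
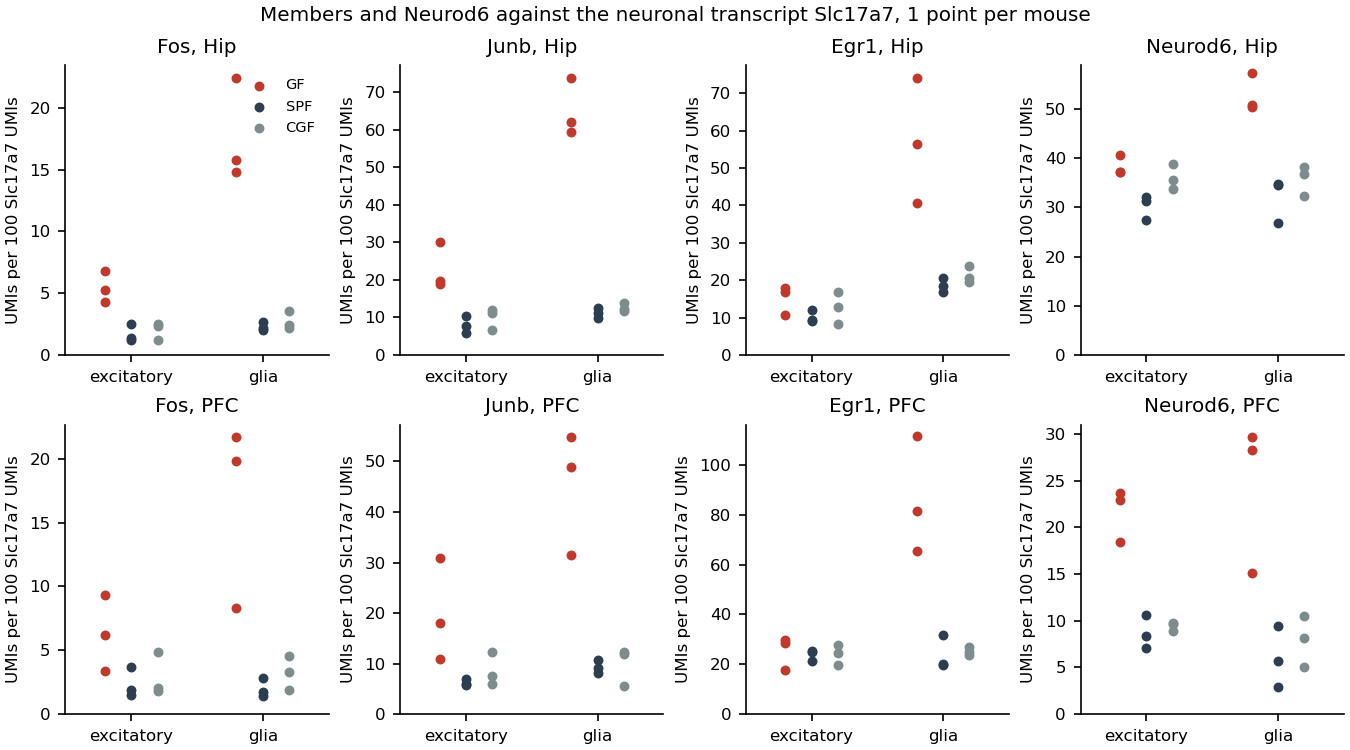
UMIs of Fos, Junb, Egr1 and Neurod6 per 100 UMIs of Slc17a7 in excitatory neurons and glia of each library, Hip on top and PFC below, 1 point for each mouse coloured by group. The GF glia stand above the GF excitatory neurons for Fos (14.8 to 22.4 against 4.30 to 6.80 in Hip), against 2.00 to 2.70 and 1.17 to 2.51 in SPF.

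In PFC excitatory neurons the members did not move together. Between GF and SPF 3 of 10 were higher and 1 lower, where 62.8% of all genes were called, 31.9% were higher in GF and 70.1% had libraries that did not overlap. Homer1 had the widest gap, at 800, 765 and 782 in GF, 323, 373 and 374 in SPF and 234, 317 and 370 in CGF. It rose 2.19-fold in GF over SPF (log2 1.13, SE 0.14, edgeR adjusted p = 2.77e-05). Egr1 went the other way, at 74.9, 54.6 and 81.8 in GF, 123, 114 and 111 in SPF and 104, 110 and 88.1 in CGF. All 3 GF mice lay below all other mice (log2 -0.72, SE 0.14, edgeR adjusted p = 0.000624), in the class where Egr1 of the Hip had been higher in GF. Dusp1 was at 18.2, 14.4 and 14.6 in GF and 11.8, 11.0 and 11.0 in SPF (0.48, SE 0.12, adjusted p = 0.00466). Junb, at 81.5, 33.4 and 49.6 in GF and 33.7, 31.4 and 25.6 in SPF, passed (0.86, SE 0.28, edgeR adjusted p = 0.0170) although the groups overlap, and it did not pass without GF5 (0.46, adjusted p = 0.0974) or SPF32 (0.75, adjusted p = 0.0638).

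Fos, which had the largest difference of the members in Hip excitatory neurons, overlapped in PFC excitatory neurons, at 24.5, 10.2 and 17.2 in GF, 17.9, 7.89 and 8.29 in SPF and 18.2, 9.16 and 8.30 in CGF. Its log2 difference between GF and SPF was 0.62 with a 95% interval of -0.14 to 1.38 (edgeR adjusted p = 0.182), and without SPF30, the highest SPF mouse, it was 1.09 (adjusted p = 0.0307). Arc was at 82.6, 53.8 and 58.4 in GF, 69.4, 63.4 and 46.7 in SPF and 43.1, 34.5 and 47.7 in CGF (GF over SPF 0.12, SE 0.18, edgeR adjusted p = 0.589). Npas4 was at 29.0, 15.9 and 23.9 in GF and 41.6, 22.6 and 18.7 in SPF, and Fosb at 8.17, 5.17 and 6.70 and 7.94, 4.84 and 8.68. Both gave small negative values that did not pass (-0.26 and -0.10), as did the positive ones of Nr4a3 (0.35) and Nr4a1 (0.22). Against CGF 4 members were higher in GF (Homer1 1.35, Arc 0.64, Dusp1 0.64 and Nr4a3 0.63) and Egr1 was lower (-0.52), where 61.9% of all genes were called. Arc was lost without GF5 (adjusted p = 0.0511) and Nr4a3 without CGF17, CGF18 or GF5 (0.0760 to 0.0784), while Junb passed without CGF17 or GF6 (0.0337 and 0.00812) and Nr4a1 without CGF19 (0.00977). Between CGF and SPF 0 of 10 passed by edgeR and by DESeq2, 1 had an unadjusted p under 0.05 (Arc, -0.52, adjusted p = 0.266), and 0.335% of genes were called. With the length and GC trend removed Homer1 was at 0.94, Junb at 1.02, Dusp1 at 0.64 and Egr1 at -0.73, all past the threshold, and Nr4a1 passed as well (0.47, adjusted p = 0.0130), where 64.9% of genes were called. By the principal transcripts Dusp1 (0.22, edgeR adjusted p = 0.110) and Nr4a1 (0.30, 0.0868) did not pass.

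PFC interneurons had 5 members higher in GF than in SPF, where 50.7% of genes were called and 26.1% were higher. They were Junb (log2 1.17, SE 0.31, edgeR adjusted p = 0.00484), Fos (1.06, adjusted p = 0.00945), Dusp1 (0.86, 0.0280), Arc (0.70, 0.0497) and Homer1 (0.60, 0.00174). Fos was at 21.4, 13.4 and 18.4 in GF and 10.5, 4.98 and 9.83 in SPF. Egr1 gave 0.11 and Npas4 0.19. Several of the calls rest on single mice: Arc was lost without any of GF5, GF7, SPF30, SPF31 or SPF32 (adjusted p from 0.104 to 0.157), Dusp1 without GF5, SPF30 or SPF31 (0.0861 to 0.134) and Fos without SPF31 (0.0612). Arc did not pass either by DESeq2 (adjusted p = 0.0729), with no TMM factors (0.0794), with at least 500 genes per nucleus (0.0505) or with totals thinned to the lowest (0.314). Dusp1 did not pass with the stricter gate (0.0728) or with the trend removed by the principal transcripts (0.09003). Nr4a1 passed with the length and GC trend removed (0.65, edgeR adjusted p = 0.0115), where 49.8% of genes did. Nr4a3 at 0.70 passed without CGF18, CGF19 or SPF32 (0.0290 to 0.0483). Against CGF 6 were higher in GF, where 50.4% of genes were called. Arc was lost there without CGF18, CGF19, GF5 or GF7, Dusp1 without CGF17, CGF19 or GF5, Fos without CGF18, CGF19 or GF5 and Nr4a3 without CGF17, CGF18 or GF7 (0.0562 to 0.122), while Egr1 passed without GF6 (0.0148) and Nr4a1 without CGF19 (0.0473). Between CGF and SPF 0 of 10 passed in edgeR and in DESeq2, with 0 at an unadjusted p under 0.05 and 0.107% of genes called.

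PFC glia had 6 of 9 tested members higher in GF than in SPF, where 51.5% of genes were called and 25.5% were higher. Fosb was too low to test. Fos was at 34.8, 14.6 and 36.5 in GF, 3.49, 3.20 and 5.72 in SPF and 6.93, 5.33 and 2.97 in CGF (log2 2.74, SE 0.45, edgeR adjusted p = 3.64e-05). Dusp1 was at 32.9, 25.0 and 29.8 in GF and 4.65, 7.47 and 7.35 in SPF (2.14, SE 0.29, adjusted p = 3.97e-06). Junb (2.00), Egr1 (1.57), Nr4a3 (1.33) and Arc (0.65) were also higher. Egr1, lower in GF in PFC excitatory neurons, was thus higher in the glia of the same libraries, at 143, 115 and 188 in GF and 40.7, 43.8 and 62.9 in SPF. Arc was lost without GF7 (adjusted p = 0.0623) or SPF32 (0.0942), and Homer1 at 0.35 (adjusted p = 0.0561) passed without any of CGF17, CGF18, CGF19, GF6 or SPF32 (0.0221 to 0.0497). Nr4a1 passed with the length and GC trend removed (0.62, adjusted p = 0.0287), where 50.2% of genes did, but not by the principal transcripts (0.40, 0.145). Against CGF 8 of 9 were higher, where 53.5% of genes were called. Between CGF and SPF 0 of 9 passed in edgeR and in DESeq2, 1 had an unadjusted p under 0.05 and 0.108% of genes were called. That one was Arc, at 26.7, 33.1 and 21.2 in SPF and 8.32, 10.7 and 14.8 in CGF (-1.28, SE 0.29, edgeR adjusted p = 0.0897), which did not overlap.

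**Figure D3:**
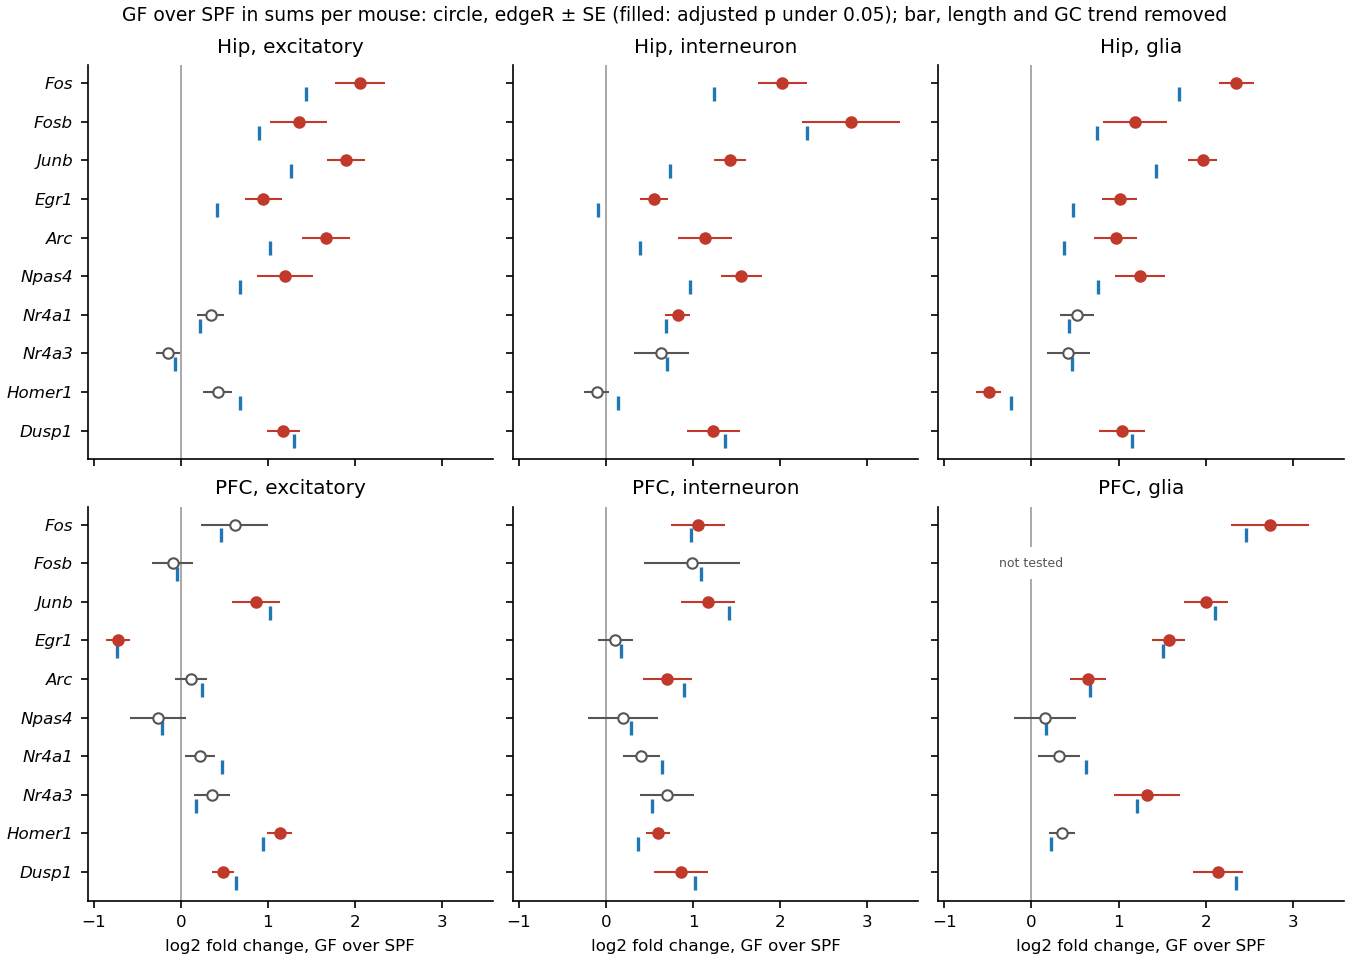
Log2 fold change of GF over SPF for each member (rows) in excitatory neurons, interneurons and glia of Hip (top) and PFC (bottom): circles are edgeR estimates with 1 SE, filled red where the adjusted p was under 0.05 and open where not, and blue bars are the same value with the gene length and GC trend removed. In Hip the bars of short genes lie left of their circles (Fos in excitatory neurons 2.06 against 1.44), and in PFC the members scatter on both sides of 0 in excitatory neurons.

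The difference between the regions was tested as such in excitatory neurons, with all 18 libraries in 1 fit. The GF over SPF difference was greater in Hip than in PFC for 7 members and smaller for Homer1, where 52.2% of all genes were called and the median of all genes was -0.13. The log2 gap between the regions was 1.61 for Egr1 (SE 0.27, edgeR adjusted p = 8.03e-05), 1.49 for Arc (0.36, 0.00200), 1.40 for Npas4 (0.50, 0.0269), 1.39 for Fosb (0.43, 0.0112), 1.38 for Fos (0.54, 0.0396), 0.98 for Junb (0.39, 0.0441) and 0.64 for Dusp1 (0.23, 0.0251), and -0.77 for Homer1 (0.23, 0.0101). Nr4a1 had 0.06 and Nr4a3 -0.56. With the mouse as a block, which pairs the regions, Nr4a3 passed too (-0.58, edgeR adjusted p = 0.0132), as it did without CGF19 (adjusted p = 0.0435). Egr1 and Arc kept the call whichever mouse was left out. Fos lost it without GF6, GF7, SPF30, SPF31 or SPF32, Junb without GF6, GF7, SPF31 or SPF32, Npas4 without GF6, GF7 or SPF31, Dusp1 without GF7, SPF31 or SPF32, Fosb without SPF32 and Homer1 without SPF30, with adjusted p from 0.0536 to 0.139. In interneurons Npas4 was greater in Hip (1.37) and Homer1 smaller (-0.70), where 37.7% of genes were called. Npas4 was lost there without CGF18, GF6, GF7, SPF30 or SPF32 and Homer1 without GF5 or SPF31 (adjusted p from 0.0533 to 0.197), and Fos passed without SPF31 (0.0296). In glia Homer1 alone passed (-0.83, adjusted p = 0.00584), where 31.4% of genes were called. With the mouse as a block glial Nr4a3 (-0.89, edgeR adjusted p = 0.0382), Egr1 (-0.57, 0.0267) and Dusp1 (-1.09, 0.0488) passed too, Dusp1 also without CGF17, GF7 or SPF31 (0.0408 to 0.0446). The share of all genes called under the block is not given. With the length and GC trend removed 2 members kept the call in excitatory neurons, Egr1 (1.26, edgeR adjusted p = 0.00288) and Dusp1 (0.66, 0.0203). Arc stood at 0.91 (0.0680), and Fos, Fosb, Junb, Npas4 and Homer1 did not pass (0.0711 to 0.519). Npas4 and Homer1 did not pass in interneurons (0.264 and 0.411) nor Homer1 in glia (0.0980), while glial Egr1 (-0.88, 0.0341) and Dusp1 (-1.18, 0.0456) passed, so that the calls over the 3 classes went from 11 to 4. In these fits 47.9% of genes were called in excitatory neurons, 31.3% in interneurons and 27.8% in glia. By the principal transcripts Dusp1 did not pass in excitatory neurons (0.49, edgeR adjusted p = 0.113). With no TMM factors Homer1 did not pass in excitatory neurons (-0.42, edgeR adjusted p = 0.123) or interneurons (-0.53, 0.0564). Depth differs between the regions in step with the group, and its part in these gaps was not tested.

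The regions of the same mice were also compared directly. In excitatory neurons of SPF mice 8 members were lower in Hip than in PFC and Nr4a3 was higher, where 68% of all genes were called. Egr1 was lowest against PFC (log2 -2.36, or 5.13-fold, edgeR adjusted p = 1.29e-08), then Arc (-2.04), Npas4 (-1.84), Fosb (-1.72), Fos (-1.58), Dusp1 (-1.29), Junb (-0.78) and Nr4a1 (-0.65). Nr4a3 was higher in Hip by 1.37, and Homer1 gave -0.15. CGF mice had the same signs, 8 lower and Nr4a3 higher, from -2.08 for Egr1 to 1.46 for Nr4a3, where 68.6% of genes were called. In GF mice 4 were lower (Homer1 -0.92, Egr1 -0.74, Dusp1 -0.65 and Nr4a1 -0.59) and Nr4a3 was higher (0.80), where 32.5% were called. Fos at -0.20 and Junb at 0.20 did not pass there. Arc at -0.54 did not pass either (adjusted p = 0.106), but did with the mouse as a block (-0.56, edgeR adjusted p = 0.0272). In interneurons 5 members were lower in Hip in SPF mice (51.6% of genes called), 7 in CGF (53% called) and 1, Egr1, in GF (3.33% called), with 0 higher before any trend was removed. In glia Nr4a3 was higher in Hip in SPF and CGF mice, with 3 members lower in SPF (47.3% called), 2 in CGF (49.8%) and 3 in GF (8.82%). Npas4 was among the lower ones in SPF and CGF glia. The length and GC trend bears on these counts too. When it was removed by gene span, Junb did not pass in excitatory neurons of SPF (-0.29, edgeR adjusted p = 0.418) or CGF mice (-0.29, 0.408), nor Nr4a1 in SPF mice (-0.35, 0.0942), whereas Homer1 was lower in Hip in both (-0.50 and -0.39, adjusted p = 0.0123 and 0.0408). That left 7 members lower in SPF and 8 in CGF mice, Nr4a3 being higher in both, where 67.9 and 68.3% of genes were called. In interneurons 1 member was left lower in SPF mice (Egr1) and 2 in CGF mice (Egr1 and Dusp1), where 47.7 and 47.8% of genes were called. Junb, at -0.18 before in CGF interneurons, stood at 0.68 (adjusted p = 0.0744) and passed as higher in Hip by the principal transcripts (0.90, edgeR adjusted p = 0.0190). In glia Junb passed as higher in Hip of SPF (0.67, adjusted p = 0.0414) and CGF mice (1.03, 0.00262), and Npas4 was left as the member lower in Hip (44.4 and 46.1% called). In GF mice the trend removal changed 1 call, glial Arc, which passed as lower (-0.69, edgeR adjusted p = 0.0273). With the mouse as a block Nr4a3 passed as higher in Hip interneurons of SPF (0.83, edgeR adjusted p = 0.00584) and GF mice (0.75, 0.0151) and in GF glia (0.53, 0.0332), Homer1 passed in interneurons of CGF (0.31, 0.0430) and GF mice (-0.45, 0.0430), and Arc in GF glia (-0.58, 0.0239). Fos and Arc in SPF interneurons no longer passed under the block (edgeR adjusted p = 0.0550 and 0.0770). The shares of all genes above are from fits without the block, and those under it are not given. Several of these calls rest on single mice. In excitatory neurons they were lost for Junb in SPF mice (without SPF31 or SPF32) and CGF mice (CGF17 or CGF19), and for Nr4a1 in SPF mice (SPF32) and GF mice (GF5, GF6 or GF7), with adjusted p from 0.0516 to 0.120. In interneurons the calls of Fos, Fosb, Arc and Npas4 in SPF mice, of Fos, Fosb, Arc, Npas4, Nr4a1 and Dusp1 in CGF mice and of Egr1 in GF mice were each lost without at least 1 mouse (adjusted p up to 0.453, for Fos in CGF mice). The mice that ended them were SPF30, SPF31, SPF32, CGF18, GF5 and GF7 in the SPF comparison, CGF17, CGF18, CGF19 and GF7 in the CGF comparison and GF5 in the GF comparison. In glia Arc, Nr4a1 and Nr4a3 in SPF mice (SPF30 or, for Arc and Nr4a1, SPF31), Npas4 (CGF19) and Nr4a1 (CGF17, CGF19, GF5 or any SPF mouse) in CGF mice and Nr4a1 in GF mice (GF5, GF6, GF7 or SPF30) were lost in the same way, with adjusted p from 0.0527 to 0.426. Calls gained were Junb (CGF17) in CGF glia, Fosb (SPF30) in SPF glia, Homer1 (CGF18) in CGF interneurons, Homer1 (CGF17 or CGF19) and Nr4a3 (CGF19) in GF interneurons and Nr4a3 (CGF19) in SPF interneurons.

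Between cell classes of the same library, with the library as a block, Fosb, Npas4, Nr4a3 and Homer1 were higher in excitatory neurons than in interneurons and than in glia, in 9 of 9 libraries of each region. On 1 scale for all classes Arc ranged over the 9 Hip libraries from 9.84 to 60.8 normalized CPM in excitatory neurons (median 16.9) and from 2.25 to 16.8 in interneurons (median 5.33), and it was higher in the former in 9 of 9 (log2 1.59, edgeR adjusted p = 3.40e-07). In the PFC it was higher in 9 of 9 again (2.10). Nr4a3 (1.497), Homer1 (1.24), Fosb (1.06), Npas4 (0.67), Junb (0.43) and Nr4a1 (0.31) were also higher in Hip excitatory neurons than in interneurons, 7 in all where 57.6% of genes were called. Fos, Egr1 and Dusp1 did not pass. In the PFC 9 were higher in excitatory neurons, all but Fos (0.35), where 51.3% were called, and Dusp1 (0.45) was lost without CGF17, CGF19, SPF30 or SPF31 (adjusted p from 0.0591 to 0.0723). Set against Hip glia, 6 members were higher in excitatory neurons (Homer1 1.64, Nr4a1 1.603, Nr4a3 1.57, Npas4 1.37, Fosb 0.65 and Arc 0.63) and 3 were lower (Dusp1 -0.80, Egr1 -0.58 and Fos -0.29), where 83.5% were called. Arc was above its glial level in 7 of 9 Hip libraries. With no TMM factors the differences from Hip glia did not pass for Arc (0.27, edgeR adjusted p = 0.129) or Fosb (0.30, 0.176), nor those from PFC glia for Fosb (0.45, 0.0828), Egr1 (0.27, 0.384) and Junb (0.16, 0.487). Junb was then lower in excitatory neurons than in Hip glia (-0.56, adjusted p = 2.5e-05). Dusp1 and Egr1 were higher in glia in 9 of 9 Hip libraries, whereas Fos was split, at 2.66 to 18.6 in excitatory neurons and 3.66 to 24.2 in glia, and did not pass without CGF17, CGF19, GF6, GF7, SPF31 or SPF32 (adjusted p from 0.0583 to 0.243). Junb at -0.21 passed without CGF17 (0.0284) or GF5 (0.0257). In PFC 8 were higher in excitatory neurons than in glia, from 1.89 for Homer1 to 0.45 for Junb, where 72.3% were called, and Fos and Dusp1 did not pass. These values pool groups that differ: Egr1 was above its glial level in 6 of 9 PFC libraries, the 6 of SPF and CGF mice, and below it in the 3 GF libraries, and so were Fos and Dusp1. Junb there was lost without CGF17, CGF18, CGF19, SPF30 or SPF31 and Egr1 (0.55) without any of the 6 SPF and CGF mice (adjusted p from 0.0521 to 0.158). Fos in PFC passed without GF7 (0.59, adjusted p = 0.0198).

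Within the Hip, marker genes split excitatory nuclei into dentate gyrus granule cells (DG), the input stage, and pyramidal cells of CA3 and CA1. Values here are CPM with no test. The order of the subtypes differed between members. Arc was lowest in DG (4.97 to 19.2 over the 9 mice, median 6.62), higher in CA3 (7.70 to 46.5, median 12.3) and highest in CA1 (12.5 to 87.2, median 21.2), and this order held in 9 of 9 mice. Nr4a1 had the same order, with medians of 9.82, 35.5 and 59.5. Nr4a3 instead peaked in CA3, with a median of 93.3 (81.3 to 110) against 55.8 (37.2 to 74.0) in CA1 and 17.1 (13.8 to 23.1) in DG, and CA3 was above CA1 in 9 of 9 mice. For the other 9 members CA1 exceeded CA3 in 8 or 9 of 9 mice. CA3 and DG were less clearly ordered: CA3 was the higher in 4 of 9 mice for Egr1, 5 for Junb, 6 for Fosb and 8 or 9 for the others.

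Groups were compared within the subtypes by whether the mice overlap. Fos was at 11.7, 8.02 and 10.4 in GF and 2.76, 1.32 and 2.68 in SPF in DG, 13.4, 14.1 and 13.6 and 4.72, 1.74 and 2.14 in CA3, and 22.6, 14.4 and 17.5 and 5.36, 4.80 and 2.44 in CA1. Fos, Fosb, Junb, Egr1, Npas4, Arc and Dusp1 had GF mice above all SPF mice in DG, CA3 and CA1 alike. Of all genes tested in Hip excitatory neurons 32.1% did so in DG, 33.2% in CA3 and 35.3% in CA1. Nr4a1 did so in CA3 and CA1 and not in DG, Homer1 in DG alone, and Nr4a3 overlapped in all 3. Between CGF and SPF mice Nr4a1 and Dusp1 had all CGF mice below all SPF mice in DG, CA3 and CA1, and Arc had this in DG. Of all genes 13.8% did in DG, 12% in CA3 and 10.3% in CA1. Nr4a1 in CA3 was at 27.6, 29.0 and 23.8 in CGF and 35.5, 35.5 and 38.0 in SPF, and Dusp1 in CA1 at 3.96, 4.36 and 2.47 and 4.85, 4.39 and 4.45, a narrow gap. The other members overlapped between CGF and SPF in all 3 subtypes.

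**Figure D4:**
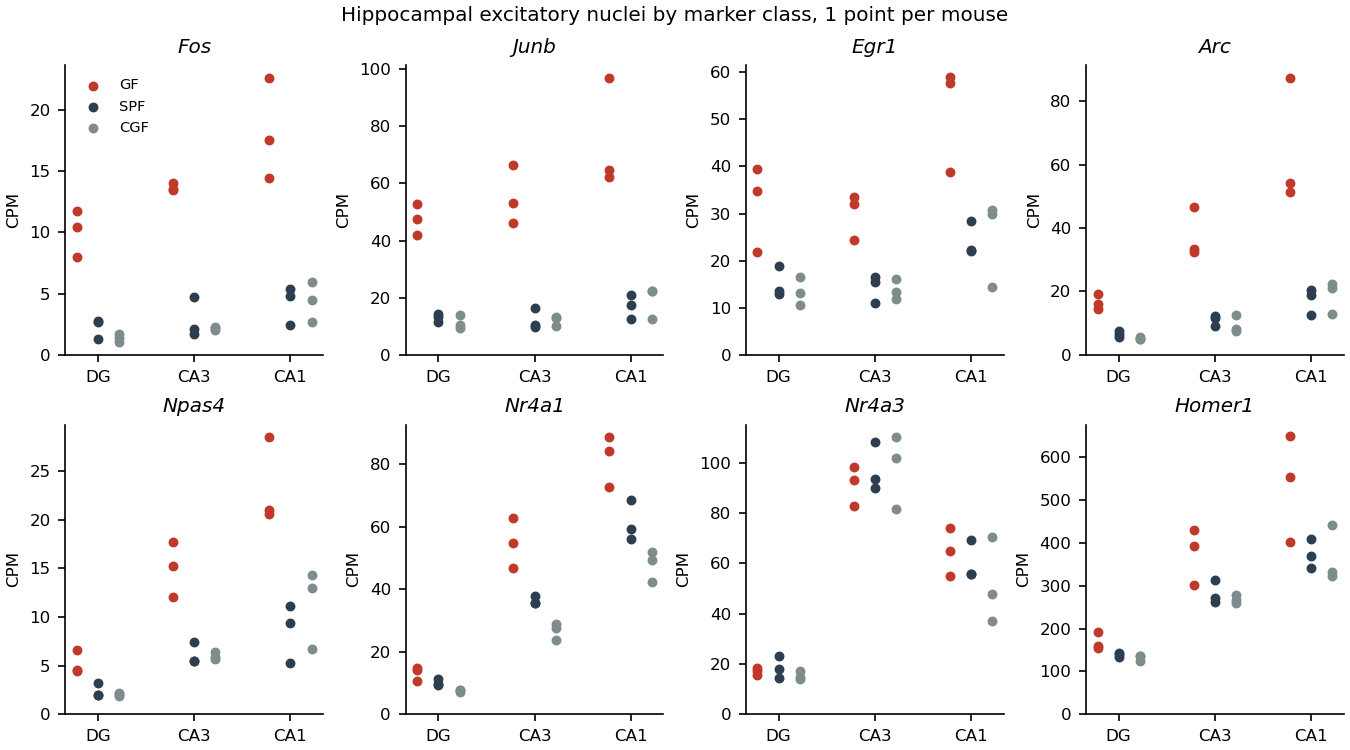
CPM of 8 members in Hip excitatory nuclei assigned by markers to DG, CA3 or CA1, 1 point for each mouse coloured by group, on linear axes that start at 0. GF points lie above SPF points in all 3 subtypes for Fos, Junb, Egr1, Arc and Npas4, and Nr4a3 is highest in CA3 (median 93.3).

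In the PFC, markers separated upper-layer from layer 6 corticothalamic nuclei. They left 5553 GF, 5105 SPF and 5390 CGF excitatory nuclei in neither. Egr1, Nr4a3 and Dusp1 were lower in upper-layer nuclei in 9 of 9 mice, Arc, Npas4 and Nr4a1 in 8, and Fos and Homer1 in 7, while Junb was split, 5 against 4. Egr1 was at 72.8, 46.2 and 72.4 in GF and 96.9, 90.7 and 109 in SPF in upper layers, and at 74.8, 63.4 and 91.0 and 180, 150 and 122 in layer 6. GF mice lay below SPF mice in both, and above them in both for Homer1 and Dusp1. Of all genes 37% lay below and 28.2% above in upper layers, and 32.7% and 26.3% in layer 6, so such a gap was common. Fos, Junb, Npas4 and Arc overlapped in both. CGF mice lay below SPF mice for Arc in upper layers, at 40.0, 27.2 and 45.5 against 58.0, 59.8 and 48.9, as did 6.73% of all genes.

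Mice also differed within a group, and in most of them the regions moved alike. The mean deviation of 8 members (all but Homer1 and Dusp1) from the group mean in excitatory neurons was 0.29 (log2) in Hip and 0.33 in PFC of GF5, -0.29 and -0.35 in GF6, and 0.31 and 0.27 in SPF30. GF7 sat at its group mean in both, SPF31 and SPF32 below it in both, and CGF17 above it in both. CGF18, at 0.22 and -0.29, and CGF19, at -0.33 and 0.08, did not share a sign.

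The members were also counted nucleus by nucleus, after thinning each excitatory nucleus to 2000 UMIs to make depths alike. This left out 530 GF, 197 SPF and 179 CGF nuclei in Hip and 373, 955 and 1829 in PFC. In Hip 2.20 to 3.38% of GF nuclei held a Fos UMI, 0.486 to 0.869% of SPF and 0.362 to 0.893% of CGF nuclei. Junb was found in 10.2 to 13.9% of GF nuclei and 2.56 to 4.14% of SPF nuclei. At 1000 UMIs the share of Hip glia with Fos was 2.03 to 2.51% in GF and 0.346 to 0.594% in SPF, so a Fos UMI by itself did not mark neurons.

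Nuclei with UMIs of 3 or more members made up 10.1, 5.07 and 8.04% of Hip excitatory nuclei in GF mice, 3.88, 2.41 and 1.78% in SPF mice and 2.73, 3.37 and 1.93% in CGF mice. All GF mice lay above all others (7.72% ± 2.51, 2.69% ± 1.08 and 2.68% ± 0.72, SD, n = 3 each, exact two-sided permutation test of the range of group means, p = 0.0464). For GF against SPF alone the exact p was 0.10, the smallest that 3 mice against 3 allow. In PFC the shares were 15.4, 8.39 and 11.5% in GF, 12.8, 9.87 and 8.22% in SPF and 9.95, 6.80 and 10.6% in CGF, which overlap (exact permutation p = 0.493). Without Homer1 the exact p was 0.0393 in Hip and 0.979 in PFC. Without thinning the PFC shares were 59.1% in GF, 28.4% in SPF and 21.8% in CGF, in step with depth. Leaving out CGF17, CGF18, CGF19, SPF31 or SPF32 took the Hip p to between 0.0679 and 0.10.

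**Figure D5:**
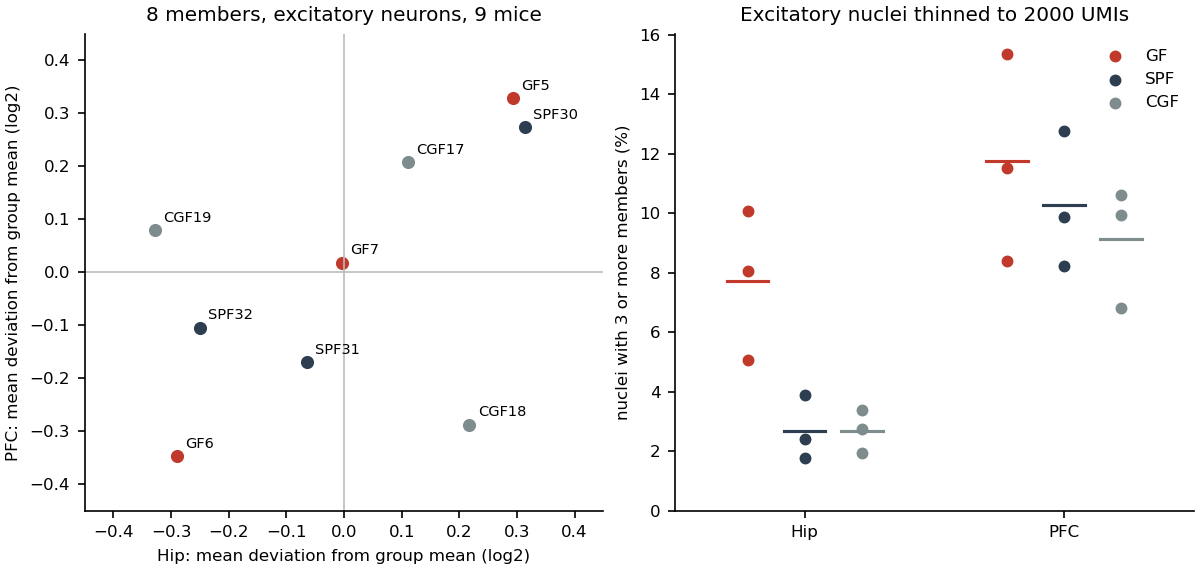
Left, mean log2 deviation from the group mean of 8 members (all but Homer1 and Dusp1) in excitatory neurons of Hip (x axis) and PFC (y axis), 1 point for each of 9 mice. Right, percent of excitatory nuclei with 3 or more members after thinning to 2000 UMIs, 1 point for each mouse and a line at the mean, with GF from 5.07 to 10.1% and SPF from 1.78 to 3.88% in Hip and overlapping groups in PFC.

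Members were found together in the same nuclei. Excitatory nuclei of all subtypes were pooled for this, and levels differ between subtypes (Arc at a median of 6.62 CPM in DG and 21.2 in CA1). The part of this mix of subtypes in the shares was not tested. Among Hip excitatory nuclei with a Fos UMI, 19.05% held Junb (median of 9 libraries), against 3.79% of nuclei without Fos, and the share was higher in 9 of 9 libraries. Only 586 thinned Hip nuclei held Fos, 139 of them with Junb, so libraries with few such nuclei give coarse shares. In PFC the shares were 16.2 and 6.52%, higher in 9 of 9. Arc was found in 21.5% of PFC nuclei with Fos and in 9.18% of those without (9 of 9 libraries), and in Hip in 7.41 and 2.71% (7 of 9). Egr1 had 32.1 and 17.1% in PFC (9 of 9) and 15.3 and 4.84% in Hip (7 of 9). In Hip the share was also higher in nuclei with Fos in 9 of 9 libraries for Nr4a1 and Homer1, in 7 for Npas4 and Nr4a3, in 6 for Dusp1 and in 5 for Fosb. The median depth before thinning of Hip nuclei with and without Fos was 6441.5 and 6805 UMIs in GF, 8978 and 9075 in SPF and 9418.5 and 8644.5 in CGF. In PFC it was 9358 and 9901, 4202.5 and 4265, and 4765 and 4175. Nuclei with Fos were thus the deeper ones in CGF mice and the shallower ones in GF and SPF mice.

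Other genes of the pathway were read from lists. Their counts stand beside the shares of all genes, in excitatory neurons, interneurons and glia, of 25, 20.2 and 21.6% higher and 21.0, 17.1 and 18.1% lower in GF in Hip, and 31.9, 26.1 and 25.5% higher and 30.9, 24.7 and 26.0% lower in PFC. Of 19 tested rapid transcription factors that are not members, 12 were higher and 1 lower in GF than SPF in Hip excitatory neurons, 8 and 0 of 14 in interneurons and 9 and 0 of 16 in glia. Their median log2 difference in Hip excitatory neurons was 0.50, against 0.04 for all genes. Ier2, a serum-response gene, was at 7.45, 5.15 and 6.02 in GF and 1.41, 0.85 and 1.48 in SPF (log2 2.32, SE 0.25, edgeR adjusted p = 0.000152), and Egr2, a relative of Egr1, rose by 2.14 (adjusted p = 0.00145). With the trend removed these stood at 1.57 (edgeR adjusted p = 0.00286) and 1.70 (0.00935), and the list had 8 higher and 0 lower. In the PFC the list had 3 higher and 3 lower of 17 in excitatory neurons, 3 and 3 of 15 in interneurons and 8 and 0 of 13 in glia. In PFC neurons those counts are below the share of all genes in both directions. Other rapid effectors, such as Dusp5 and Rgs2, had 13 higher and 0 lower of 20 in Hip excitatory neurons, 5 and 0 of 12 in interneurons and 8 and 0 of 19 in glia, and in PFC 6 and 5 of 20, 6 and 3 of 15 and 8 and 1 of 16. In PFC excitatory neurons this is below the share of all genes in both directions. The effectors had 7 higher and 2 lower in Hip excitatory neurons with the trend removed. Tiparp, an ADP-ribosyltransferase gene of this list, was at 33.9, 29.4 and 27.6 in GF and 10.7, 8.30 and 13.0 in SPF in PFC excitatory neurons (1.51, adjusted p = 0.000399, and 1.12, adjusted p = 0.00319, with the trend removed). In Hip glia, where 0 genes of either rapid list were lower, 2 transcription factors and 3 effectors were lower with the trend removed.

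The late response genes, which follow hours after activity, were mixed, with 4 higher and 4 lower of 15 in Hip excitatory neurons, 2 and 1 of 13 in interneurons and 1 and 4 of 15 in glia, and in PFC 5 and 6 of 15, 1 and 4 of 12 and 3 and 3 of 11. These counts lie on both sides of the shares of all genes, and 2 higher and 2 lower were left in Hip excitatory neurons with the trend removed. Within that list Scg2, a granin of secretory vesicles, was at 94.3, 100 and 101 in GF and 19.5, 22.6 and 29.6 in SPF in Hip excitatory neurons (2.04, edgeR adjusted p = 0.000112), and Cbln4, a synaptic organizer, rose by 1.39 in PFC (adjusted p = 0.000271). Both passed with the trend removed (1.58 and 0.84). Signalling genes and factors upstream of the members, such as Creb1 and Srf, had 0 higher and 10 lower of 22 in Hip excitatory neurons, 0 and 9 in interneurons and 1 and 10 in glia, and 5 and 10, 3 and 6 and 4 and 9 in the 3 PFC classes. In Hip excitatory neurons 2 were higher and 5 lower with the trend removed.

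Stress genes were counted beside them because handling raises both. Of 13 heat shock and stress genes 7 were higher and 0 lower in GF in Hip excitatory neurons, 5 and 0 of 9 in interneurons and 7 and 0 of 13 in glia, with a median log2 difference of 0.67 in Hip excitatory neurons, where 3 higher and 0 lower were left with the trend removed. In PFC they had 3 higher and 6 lower of 13, 2 and 2 of 8 and 5 and 1 of 9, the neuronal counts of higher genes being below the share of all genes and that of lower ones in excitatory neurons above it. Hspb1, a small heat shock protein gene, rose by 3.21 in PFC excitatory neurons (edgeR adjusted p = 9.30e-05, and by 3.37 with the trend removed). It was near the floor there, at 1.81, 0.95 and 2.07 normalized CPM in GF and 0.12, 0.18 and 0.20 in SPF. The part of stress or handling in the members' differences was not tested. The 6 ribosomal-RNA-linked transcripts were lower in GF in every class of both regions, with medians of -1.09 in Hip and -3.60 in PFC excitatory neurons. The lowest were Gm42418 (-6.44), Cmss1 (-5.07) and Lars2 (-4.03) in PFC and Gm42418 (-2.02), AY036118 (-1.17) and Cmss1 (-1.12) in Hip. Taking these and the mitochondrial genes out of the totals moved 1 of 129 member calls (GF against SPF, the region difference and the tests between classes). It was that of Nr4a1 in Hip glia, which then passed (edgeR adjusted p = 0.0476).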

How the data were processed

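Nuclei from frozen tissue were profiled with 10x Genomics 3′ chemistry. The authors deposited raw UMI counts per gene and nucleus, aligned to mm10; the matrix headers name Cell Ranger 3.1.0 and the labels CASAVA 1.8. Nuclei with under 200 genes or over 10% mitochondrial UMIs were dropped. Classes were called by a marker score (minimum 0.3, second class at most 0.7 of the first), with 10476 nuclei near the cut-off and no doublet caller run; 2437 barcodes occurred in more than 1 library, at most 0.362% of a pair. UMIs were summed per library and class and tested with edgeR 4.0.16 (R 4.3.3, TMM, low-count filter, threshold 0.05, SE from the F statistic, normal 95% intervals). Shares of nuclei were thinned to 2000 UMIs and tested by exact permutation. Gene lengths came from GENCODE for 99.8% of genes. Members and lists were chosen with earlier results of these data known; all members are named, and of the other lists the 3 largest rises and falls without overlap. Hip and PFC libraries of a mouse carry its number: their deviations correlated at 0.218 to 0.465 (9 pairs), others at -0.322 to -0.0186, so the number pairs them. On simulated data the test found 75.5% of 200 changed genes with 2 false calls in Hip excitatory neurons and 79.5% with 9 in PFC. In interneurons and glia it found 64.1 to 73.4%, and with a length trend added and removed 70% (Hip) and 71.5% (PFC) in excitatory neurons. For the region difference in excitatory neurons it found 49.5%, or 54.5% with the mouse as a block. Excitatory neurons against glia gave 95.5% in Hip and 93.5% in PFC. At most 200 genes were changed in each simulation. The real GF against SPF fits in excitatory neurons called 45.9% of all genes in Hip and 62.8% in PFC. The simulated figures therefore need not hold for the real data. Alternatives were DESeq2 1.42.0, no TMM, no filter, a stricter gate, 500 genes per nucleus, thinned totals, a length and GC trend removed (by gene span and, added after the data were seen, by the span of the shortest APPRIS principal transcript, tagged for 22375 genes), fits of the compared groups alone, blocks and left-out mice.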

Additional observations from a re-analysis of the deposited data

Results flagged for a closer look

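For 11 results the GF over SPF difference was itself different between Hip and PFC, by a contrast of the 2 regions in edgeR. The same contrast called 52.2% of all genes in excitatory neurons, 37.7% in interneurons and 31.4% in glia. In excitatory neurons the log2 gap (Hip minus PFC) was 1.61 for Egr1, 1.49 for Arc, 1.40 for Npas4, 1.39 for Fosb, 1.38 for Fos, 0.979 for Junb, 0.639 for Dusp1 and -0.77 for Homer1. In interneurons it was 1.37 for Npas4 and -0.698 for Homer1, and in glia -0.83 for Homer1. Of these, Egr1 and Dusp1 in excitatory neurons alone kept the call with the length and GC trend removed. By the principal transcripts Egr1 alone kept it. Homer1 was past the threshold in all 3 classes, each time with the smaller GF over SPF difference in Hip, but in none of them with the length and GC trend removed (edgeR adjusted p = 0.344, 0.411 and 0.0980), and with no TMM factors in glia alone. The depth of GF against SPF libraries also differs between the regions, and its part in these gaps was not tested.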

How the results depend on the processing

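Over the 3 classes, 23 member tests were past the threshold for GF against SPF in Hip (14 with the length and GC trend removed, 9 with principal transcript spans in that trend) and 27 for GF against CGF (13 and 12), 15 and 19 in PFC (18 and 20, and 14 and 19), and 0 and 0 for CGF against SPF (1 in PFC with no low-count filter, Arc in glia). Of all genes 37.3 to 45.9% were called for GF against SPF in Hip, by class, and 39.4 to 46.1% for GF against CGF. In PFC it was 50.7 to 62.8% and 50.4 to 61.9%. Removing the length and GC trend left 17.2 to 32.2% and 17.6 to 32.9% in Hip. For GF against CGF in PFC no share with the trend removed is given here. With principal transcript spans the share of all genes is given for GF against SPF in Hip alone. The other counts with these spans cannot be set against all genes. Hip against PFC gave 9 in GF mice (14 with the replicate block, which pairs the libraries of a mouse, and 14 with the block and the trend removed), 18 in SPF (12 with the trend removed, 13 with principal transcript spans) and 19 in CGF (14 and 15). In SPF and in CGF mice 2 of these calls were higher in Hip (3 in SPF with either trend removal, 3 and 4 in CGF). For GF mice the fits without the block called 32.5% of all genes in excitatory neurons, 3.33% in interneurons and 8.82% in glia. No share under the block is given, so the rise from 9 to 14 cannot be set against all genes. The region difference gave 11 (6 to 12 with a mouse left out, 7 without GF6 or GF7 and 6 without SPF32), where 31.4 to 52.2% of all genes were called. It gave 4 with the trend removed and 3 with principal transcript spans. In each of these refits 2 calls were the glial ones of Egr1 and Dusp1, which are not among the 11. Excitatory neurons against interneurons in Hip gave 7 (4 with no library block), and against glia in PFC 8 (5 with no TMM factors), where 57.6% and 72.3% of all genes were called. For the share of nuclei with 3 or more members the exact permutation p was 0.0464 in Hip (0.0357 to 0.10 with a mouse left out, 0.0679 with no thinning) and 0.493 in PFC (0.15 to 0.832 with a mouse left out, 0.00357 with no thinning, 0.0464 for 2 or more members). Of 129 single results, 2394 refits gave 2173 the same call, 153 lost it, 66 gained it and 2 changed the sign of a called result: Egr1 in Hip interneurons, GF over SPF, at -0.0884 (edgeR adjusted p = 0.765) with the trend removed and -0.1347 (0.635) with principal transcript spans. In 62 other refits a result past the threshold neither before nor after changed sign. The 129 results are the tests of GF against SPF, of the region difference and between classes. Tests of GF against CGF, CGF against SPF, Hip against PFC within a group and single glial types are not among them. The replicate block changed no call of a member other than those given beside the region comparisons above. The cause of these changes was not tested. Depth limits PFC glia most, where 1631 of 2910 SPF nuclei held fewer than 1000 UMIs. Sums by class carry neuronal RNA in glial barcodes.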

Other observations

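The genes whose mouse-to-mouse deviations in excitatory neurons were most like the mean of Fos, Fosb, Junb, Egr1, Arc, Npas4, Nr4a1 and Nr4a3 were picked by Pearson's r over the 18 sums, among 11222 genes with at least 5 CPM. They were Lactb (0.91), Gm38413 (0.87), Spry2 (0.86), Bdh1 (0.85), Gm15559 (0.85), Gm3848 (0.85), Pcsk2os2 (0.84) and Gk5 (0.84). Spry2 encodes an inhibitor of receptor tyrosine kinase signalling and Lactb a mitochondrial protein. Among the members themselves r was 0.93 for Npas4, 0.90 for Junb, 0.88 for Fos, 0.87 for Arc, 0.84 for Fosb, 0.77 for Nr4a1, 0.67 for Egr1 and 0.40 for Nr4a3, each of which is part of the mean, and 0.72 for Dusp1 and 0.27 for Homer1, which are not. The points are libraries of 9 mice that share a mouse in pairs, and the values are a description.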
